A study of Mus musculus with 38 samples.

Results

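The 1 h response of whole-neuron ribosomes to depolarization was read from the input libraries of a PL-Ribo-seq experiment, which combines proximity labelling with ribosome profiling. Ribosome profiling sequences the mRNA fragments, called footprints, that ribosomes protect from nuclease. The inputs are the part of the ribosome preparation set aside before streptavidin pulldown, so they report ribosomes of the whole culture, with those of dendrites included but not set apart. The comparison set 6 depolarized inputs, titled DEP_PSD95_in and DEP_Pan_in, against 6 resting inputs, titled REST_PSD95_in and REST_Pan_in, which makes 12 of the 38 libraries of the series. The 2 inputs of a condition that carry the same replicate number were summed into a pair, which gave 3 depolarized and 3 resting pairs.

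All 12 libraries came from primary cortical neurons of the mouse (CD-1 embryos, wild type for all that the labels state), grown in Neurobasal medium with B27. Every culture carried a lentiviral biotin ligase under a doxycycline-inducible promoter, either TurboID-PSD95, which is held near postsynapses by elements of PSD95, or Pan-TurboID, which lacks any such signal. Depolarized neurons were silenced with tetrodotoxin and DL-AP5 for 2 h and given 55 mM KCl for 1 h. Their medium was then replaced, for the last 30 min before harvest, by fresh medium with biotin, tetrodotoxin and DL-AP5. Resting neurons received no KCl, and the labels do not say whether they received the silencing drugs or the change of medium. If they did not, effects of KCl, of the drugs and of the medium change cannot be told apart here. All cultures, resting ones included, were given cycloheximide for 2 min and then biotin for 30 min, and dishes were combined for each sample. Nothing in the labels says that replicates came from separate litters, so p-values measure the spread between these samples.

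KCl depolarizes the membrane and opens voltage-gated calcium channels. Calcium entry activates kinases and phosphatases that act on transcription factors already present, such as CREB and SRF, and immediate early genes are transcribed within minutes. Their products, and other calcium-regulated signals, then change the mRNA of secreted factors, feedback inhibitors and synaptic proteins. Translation is also regulated directly, through phosphorylation of the initiation factor eIF2 and of the elongation factor eEF2. A footprint count reflects both the amount of an mRNA and the number of ribosomes on each copy, and these cannot be told apart here. Likewise, in a bulk culture, fewer cells of a type and less RNA per cell cannot be told apart.

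The input libraries held between 9299231 and 30791713 counts in all, of which between 2106560 and 13017251 fell within coding sequences (CDSs), taking each gene's longest transcript. CDSs took 16.9% of the counts of the depolarized pair numbered 1 and between 34.1% and 44.7% of the counts of the other 5 pairs, so depolarized pair 1 stood apart and was also left out as an alternative. Pairs of a condition differed by more than sampling noise, with a chi-square per gene of 12.3 to 29.8, where noise alone gives 1. Among 12 neuron markers the summed level was 10200 to 11000 CPM (counts scaled to a common library total) in resting and 8670 to 10600 CPM in depolarized pairs. Microglia markers summed to 18.5 to 29.7 and 17.1 to 25.7 CPM, 9 of 12 were below 1 CPM in every pair, and Cx3cr1 was at 0. Astrocyte markers summed to 723 to 1380 CPM at rest and 791 to 1280 CPM after KCl, with Gjb6 at 0. Oligodendrocyte lineage markers summed to 292 to 625 CPM at rest and 185 to 403 CPM after KCl, with Mog at 0, endothelial and fibroblast markers to 378 to 496 and 198 to 515 CPM, and dividing progenitor markers to 668 to 2020 and 536 to 1410 CPM. The groups overlapped in each of these sums.

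Relative to the other genes, depolarization raised the CDS footprints of 517 genes (3.96% of 13047 tested) and lowered those of 730 genes (5.6%), 9.56% in all. These passed the quasi-likelihood test of edgeR with adjusted p-values (false discovery rate, FDR, Benjamini-Hochberg) under 0.05. Scaling holds the median change of all genes near 0. Here and below a rise or fall is therefore relative, and a shift shared by all genes is not seen. The study reported fewer ribosomes on CDSs after depolarization, in dendritic and pan-neuronal transcripts, and less puromycin incorporation. Of the higher genes, 142 rose more than 2-fold and 28 more than 4-fold. Of the lower genes, 323 fell more than 2-fold and 22 more than 4-fold. In 514 of the higher and 728 of the lower genes the 3 depolarized pairs all lay on one side of the 3 resting pairs. For these, same-numbered pairs must move with the fold change in 3 of 3 numbers, and they did so in each called gene. In 342 of the higher and 561 of the lower genes the 6 depolarized libraries all lay on one side of the 6 resting libraries. The test did not use the replicate number as a block, and with that block 361 genes were higher and 601 lower. The counts also depended on which pairs were used. Without both pairs numbered 2 the test called 45 higher and 63 lower genes, without both numbered 3 it called 98 and 198, and without depolarized pair 1 alone it called 777 and 1119.

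Gene lists were chosen with earlier results of these data known, also where no such remark is made, so their shares only describe these data. The immediate early genes were the most strongly induced class. Of 22 listed and tested, 16 rose, 0 fell and the median log2 fold change was 2.55, against 0.00 for all genes tested. Junb, a subunit of the AP-1 factor, went from 74, 96.2 and 87.5 CPM in the resting pairs to 957, 1270 and 1180 CPM in the depolarized pairs. Egr1, a zinc finger factor, rose by 3.57 on the log2 scale (SE 0.210, edgeR FDR 6.19e-07) and Npas4, a calcium-dependent factor of neurons, by 2.54 (SE 0.160, edgeR FDR 8.71e-07). Beyond this class, 501 higher genes remained. The 12 with the smallest p are described next, followed by the classes they belong to. Only called genes whose 3 depolarized pairs all lay on one side of the 3 resting pairs were eligible. Their separation is thus a condition of choice and not a finding.

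Regulators of growth arrest and feedback inhibitors of MAP kinases were 5 of these 12 genes. Gadd45g, a stress sensor that binds MAP kinase kinases and acts in DNA demethylation (mm10 chromosome 13, CDS from 51846780 to 51847979), held 30.9, 35.1 and 29.1 CPM in resting pairs and 172, 182 and 227 CPM in depolarized pairs. Its log2 fold change was 2.61 (SE 0.176, edgeR FDR 1.06e-06). Gadd45b, of the same family, held 8.37, 9.55 and 9.79 CPM at rest and 45.3, 57.3 and 57.0 CPM after KCl. Every depolarized pair was several times above every resting pair for both genes, a gap that the choice of genes favours. Dusp1, a phosphatase that switches MAP kinases off, went from 131, 138 and 166 CPM to 529, 585 and 559 CPM. Dusp14, a phosphatase of the same superfamily, went from 9.64, 7.37 and 7.22 CPM to 58.8, 33.3 and 37.4 CPM, with depolarized pair 1 the highest. Btg2, an antiproliferative protein that recruits the deadenylase of mRNAs, went from 39.6, 37.2 and 45.2 CPM to 109, 172 and 184 CPM, with depolarized pair 1 the lowest. All 3 were separated between conditions in each of the 12 libraries, which the choice of genes also favours.

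The remaining genes among the first 12 were of mixed function. Atf3, a stress-induced transcription factor, had the largest change, 3.13 on the log2 scale (SE 0.316, edgeR FDR 1.22e-04) from 3.71, 8.10 and 9.54 CPM to 47.0, 65.7 and 66.9 CPM. Spty2d1, a histone chaperone of the SPT2 family, went from 40.5, 38.6 and 40.6 CPM to 202, 166 and 311 CPM. Rsrp1, a protein rich in arginine and serine, went from 84.3, 88.2 and 82.0 CPM to 270, 288 and 333 CPM. Resting pairs of these last 2 genes were nearly level, while their depolarized pairs spread more widely. Nptx1, a secreted pentraxin that clusters AMPA receptors, rose by 1.70 (SE 0.166), Gse1 by 1.72 (SE 0.170), Elmsan1, a scaffold of a histone deacetylase complex, by 1.64 (SE 0.169) and Tiparp, an ADP-ribosyltransferase, by 1.83 (SE 0.199) on the log2 scale. For Dusp1, Nptx1, Gadd45g and Gadd45b every CDS segment with at least 50 counts moved up, which was 4 of 4, 5 of 5, 4 of 4 and 4 of 4 segments. Segments, here and below, are parts of the counts that were tested and add no separate support.

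**Figure D1:**
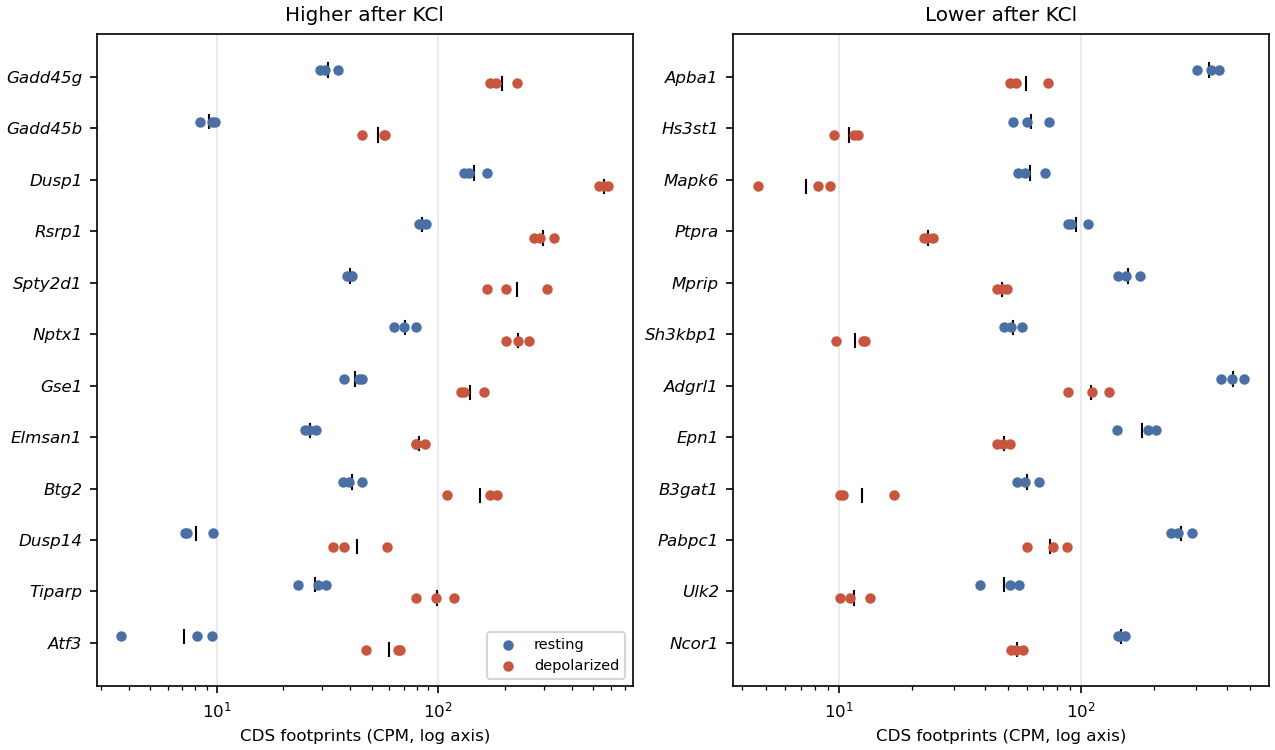
CDS footprints of the 12 higher and 12 lower genes with the smallest p outside the immediate early gene list, in CPM on a log axis, with 1 point per pair (3 resting in blue, 3 depolarized in red) and a black tick at each group's mean. Genes were drawn only from those whose 3 depolarized pairs lay wholly on one side of the 3 resting pairs. Gadd45g is at 172 to 227 against 29.1 to 35.1 CPM, and Mapk6 at 4.62 to 9.22 against 55.2 to 71.4 CPM.

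Several induced genes held a short promoter sequence known as a binding site of CREB or of ATF4, shown here to place the genes beside their regulatory letters. The windows come from RefSeq promoters of build GRCm38.p6, read 5′ to 3′ on the strand of the gene, and the capitals mark the match. Dusp1, Btg2, Ppp1r15a, Arl4d and Ccnl1 hold the full cyclic AMP response element TGACGTCA, and Gadd45g and Atf3 hold TTGCATCA, the reverse complement of TGATGCAA, an element bound by ATF4 with C/EBP factors.
Dusp1, chr17:26508598-26508625, minus strand: gtagggcgggTGACGTCAccgcccggtc
Btg2, chr1:134079304-134079331, minus strand: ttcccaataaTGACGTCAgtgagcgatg
Ppp1r15a, chr7:45526263-45526290, minus strand: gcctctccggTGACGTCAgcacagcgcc
Arl4d, chr11:101665505-101665532, plus strand: ccgcgtcgtgTGACGTCAcgagagggtt
Ccnl1, chr3:65958250-65958277, minus strand: gtcggcgtggTGACGTCAgggcggaagc
Gadd45g, chr13:51846564-51846591, plus strand: gccgcctcatTTGCATCAgaaagcgggc
Atf3, chr1:191183426-191183453, minus strand: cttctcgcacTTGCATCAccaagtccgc
The first listed RefSeq promoter of each gene (300 bases, from 250 before to 50 after the start) was searched on both strands, and 391 of 517 higher, 585 of 730 lower and 10057 of 13047 tested genes had one. TGACGTCA was in 6.91% of the higher, 3.25% of the lower and 3.47% of all these promoters. TGATGCAA was in 2.3% of the higher (9 promoters), 0.342% of the lower (2 promoters) and 0.537% of all. Lowered genes named here hold TGACGTCA as well, namely Pak1, Mapk10, Chgb, Eef2 and Ptprs, and 0 of 16 immediate early genes with a promoter hold it. The AP-1 letters TGANTCA were in 6.39%, 3.08% and 4.21%, and the CArG box, the site of SRF, in 1.02%, 0.684% and 1.32%. These are counts of letters in a fixed window, and sites outside it were not searched.

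Feedback inhibitors of kinase and G protein signalling moved in both directions, with 10 of 37 tested higher, 4 lower and a median log2 fold change of 0.37. Sik1, a kinase that restrains CREB coactivators, went from 65.4, 103 and 88.7 CPM to 285, 232 and 207 CPM. Spred1, an inhibitor of Ras signalling, moved the other way, from 17.7, 18.8 and 22 CPM to 5.06, 5.22 and 5.53 CPM. Of 13 growth arrest proteins, a list put together after values were seen, 6 rose and 0 fell, and Btg1 rose by 1.35 (SE 0.226, edgeR FDR 0.00244). Of 15 BCL2 family proteins tested, also listed after values were seen, 4 rose and 0 fell. These were the pro-apoptotic BH3-only proteins Bbc3 (log2 fold change 1.46, SE 0.200), Hrk (1.76, SE 0.305) and Bcl2l11 (1.73, SE 0.484) and the anti-apoptotic Mcl1 (0.64, SE 0.156). None of these 4 passed without both pairs numbered 2, and Bcl2l11 and Mcl1 also missed the FDR without both numbered 3. Bcl2l11 missed the FDR with the replicate number as a block and with the inputs of either ligase alone. Mcl1 missed it with Pan-TurboID inputs alone.

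Other activity-regulated genes outside the immediate early list split. In a list headed activity-regulated synaptic genes 10 of 39 rose and 2 fell (median 0.28), but 5 of the 10, Gadd45g, Gadd45b, Btg1 and Btg2 among them, are also counted among the growth arrest proteins above, which are not synaptic proteins. Of 35 other activity-regulated transcription factors 9 rose and 2 fell (median 0.07). Arl4d, a small GTPase, went from 9.14, 12.4 and 13.4 CPM to 47.7, 25.6 and 38.3 CPM. Cebpb, a basic leucine zipper factor, rose by 1.47 (SE 0.226, edgeR FDR 0.00177), while Ncoa7, a nuclear receptor coactivator, fell by 0.99 (SE 0.186, edgeR FDR 0.00560). Of 34 secreted peptides and growth factors 2 rose and 5 fell (median 0.05). These are 5.88% and 14.7%, against 3.96% and 5.6% of all genes. In the synaptic and transcription factor lists 25.6% and 25.7% rose, and 5.13% and 5.71% fell. Gdf10, a growth factor of the TGF-beta superfamily, went from 137, 120 and 123 CPM to 77.6, 48.2 and 37.5 CPM. Chgb, a granin of secretory vesicles, went from 1240, 1350 and 1300 CPM to 837, 685 and 777 CPM, with no overlap.

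Genes of the integrated stress response were higher in part. This pathway starts from phosphorylated eIF2 and works through the factor ATF4, which induces amino acid synthesis and transport genes. Of 32 tested, 14 rose, 0 fell and 31 had a fold change above 0, with a median log2 fold change of 0.75. Ppp1r15a, the regulatory subunit of the eIF2 phosphatase, went from 9.41, 21.1 and 16.8 CPM to 73.3, 52.6 and 65.2 CPM. Atf4 itself went from 39.9, 88.2 and 80.0 CPM to 216, 222 and 212 CPM. Psph, the last enzyme of serine synthesis, went from 27.0, 44.7 and 36.3 CPM to 117, 74.7 and 90.2 CPM, and Sesn2, an inhibitor of mTORC1, rose by 1.48 (SE 0.248, edgeR FDR 0.00369). Resting pair 1 was the lowest resting pair for each of these 4 genes, and the median of the list was 1.39 between the pairs numbered 1, 0.29 between those numbered 2 and 0.65 between those numbered 3. Without depolarized pair 1, 12 of the 32 passed, with a median of 0.52. Without both pairs numbered 2, 4 passed, and without both numbered 3, 6 passed. The study saw phosphorylated eIF2 change after KCl, but no significant change of ATF4 or CHOP protein on western blots. Its Atf4 RNA in Pan-TurboID inputs did not change significantly either. Its authors concluded that the response to depolarization differs from a classical stress response.

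The endoplasmic reticulum branch of the stress response was smaller. Of 24 chaperones and unfolded protein response genes 4 rose and 0 fell (median 0.30). Herpud1, a component of ER-associated degradation, went from 66.5, 84.5 and 69.5 CPM to 221, 198 and 175 CPM. Eif2ak3, which encodes the eIF2 kinase PERK, rose by 1.18 (SE 0.187), Hspa5, the main chaperone BiP, by 0.92 (SE 0.169) and Dnajb9, its cochaperone, by 0.97 (SE 0.214). These last genes missed the FDR without both pairs numbered 2, and Hspa5 and Dnajb9 also without both numbered 3. Of 20 cytosolic aminoacyl-tRNA synthetases, which charge tRNAs with amino acids, 3 rose and 0 fell (median 0.40), namely Rars, Wars and Iars. The longest transcript of Wars has a CDS of 120 nt, and its log2 fold change was 0.26 with the length trend removed and 0 with the transcript of the highest count, neither past the FDR. Iars missed the FDR with the replicate number as a block and was at 0.38 without both pairs numbered 1. Between the pairs numbered 1, 2 and 3 their median was 0.89, -0.01 and 0.22. Cytosolic heat shock proteins had a median of -0.03, with 0 of 28 higher and 2 lower (7.14%, near the 5.6% of all genes). These were Hspa8, the constitutive HSP70, which went from 3540, 3780 and 4440 CPM to 2350, 2370 and 2050 CPM, and Fkbp4, a cochaperone of HSP90, which fell by 0.80 (SE 0.163, edgeR FDR 0.00840).

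Splicing regulators were also among the induced genes. They were listed after their values had been seen, as 40 SR proteins, their kinases and spliceosome-associated proteins, and 14 rose, 3 fell and 34 had a fold change above 0 (median 0.48). Ccnl1, a cyclin that associates with SR proteins, went from 14.1, 14.8 and 17.3 CPM to 47.0, 47.9 and 64.2 CPM. Srsf3, a classical SR protein, went from 48.4, 54.1 and 47.8 CPM to 90.1, 95.5 and 118 CPM. Akap8, a nuclear anchoring protein with a role in splicing, rose by 1.05 (SE 0.168, edgeR FDR 0.00201). With the trend of counts with CDS length removed 19 rose and 1 fell, without depolarized pair 1 there were 19 and 3, without both pairs numbered 2 there were 2 and 0, and without both numbered 3 there were 3 and 0.

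Nuclear-encoded subunits of the respiratory chain had fold changes above 0 throughout, of which fewer passed than did not. These proteins are made in the cytosol and assembled in the inner mitochondrial membrane, where they carry electrons and make ATP. All 36 subunits of complex I tested had a fold change above 0, 14 rose past the FDR and 0 fell, and all 39 subunits of complexes II to V had a fold change above 0, 16 rose and 0 fell. Both lists had a median log2 fold change of 0.51, with ranges of 0.04 to 0.92 and 0.04 to 1.02. Ndufa1, a supernumerary subunit of complex I, went from 106, 108 and 105 CPM to 187, 201 and 214 CPM. Cox6c, a subunit of cytochrome c oxidase, went from 127, 119 and 169 CPM to 259, 219 and 322 CPM. Ndufa9 rose by 0.86 (SE 0.155), Ndufa7 by 0.83 (SE 0.157) and Cox6a1 by 0.85 (SE 0.163) on the log2 scale. The CDSs of these lists were short, with medians of 445 and 390 nt against 1380 nt for all genes tested, and with the trend with CDS length removed the medians were 0.24 and 0.29 and 4 and 3 subunits passed. Without both pairs numbered 2, 0 subunits of either list passed (medians 0.53 and 0.55), without both numbered 3, 2 and 1 passed, and without depolarized pair 1, 20 and 25 passed.

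Other lists of short housekeeping genes also had medians above 0. Of 77 mitochondrial ribosomal proteins 5 rose and 0 fell (median 0.32, or 0.13 and 0 passed with the length trend removed). Those 5 are 6.49%, against 3.96% of all genes. Mrpl35 went from 31.6, 36.8 and 34.0 CPM to 68.0, 49.4 and 55.9 CPM. Of 17 subunits of the V-ATPase, the pump that acidifies vesicles, a list made after values were seen, 5 rose and 0 fell (median 0.35). Atp6v0c, its membrane ring subunit, went from 223, 226 and 232 CPM to 414, 417 and 326 CPM. Of 32 proteasome subunits 7 rose and 0 fell (median 0.24), among them Psma2, which went from 122, 123 and 116 CPM to 218, 184 and 205 CPM. With the length trend removed, 1 subunit of the V-ATPase and 2 of the proteasome passed. Cytosolic ribosomal proteins are as short as these, with a median CDS of 432 nt, and had 0 of 78 higher, 3 lower and a median of 0.01, or 0 higher, 8 lower and -0.29 with the length trend removed. Their median was -0.11, -0.36 and 0.34 between the pairs numbered 1, 2 and 3, and in inputs treated with siRNA 32 of 77 rose and 7 fell (median 0.21), where 14.3% of all genes rose and 15.5% fell. The 13 mitochondrially encoded subunits had the highest list median after the immediate early genes, 1.12, but none passed, and their median was 2.1 between the pairs numbered 1, 0.99 between those numbered 2 and 0.11 between those numbered 3. Without both pairs numbered 3, 5 of the 13 rose. The gene mt-Nd5 had the smallest p of them, at 1.23 on the log2 scale (SE 0.407, edgeR FDR 0.114). It passed under the likelihood ratio test, DESeq2, no robust estimation, limma-voom, the 12 inputs as separate libraries and the fit of 24 libraries, and without depolarized pair 3 (1.52).

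Enzymes of cholesterol synthesis and uptake had a median log2 fold change of 0.45, with 7 of 27 higher and 2 lower. Msmo1, a sterol oxidase, went from 273, 281 and 253 CPM to 490, 443 and 378 CPM. Fdps, a synthase of the pathway, rose by 0.64 (SE 0.161) on the log2 scale. Fdps missed the FDR with Pan-TurboID inputs alone and Msmo1 with TurboID-PSD95 inputs alone (0.54). Both genes missed it without both pairs numbered 2 and without both numbered 3. Scap, which escorts the sterol-sensing factor SREBP out of the ER, moved against Msmo1 and Fdps, from 46.1, 48.7 and 41.6 CPM to 16.9, 15.8 and 13.2 CPM. Of 22 glycolytic enzymes and transporters 1 rose, Pgam1 (log2 fold change 0.65, SE 0.160, edgeR FDR 0.0222), and 0 fell. This share of 4.55% was near the 3.96% of all genes, and Pgam1 missed the FDR with the replicate number as a block. Of 16 genes of polyamine and methionine metabolism, listed after values were seen, Azin1 and Mat2a rose and Smox, a polyamine oxidase, fell. Each missed the FDR without both pairs numbered 2, Mat2a and Smox also without both numbered 3, and Smox with either ligase alone.

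**Figure D2:**
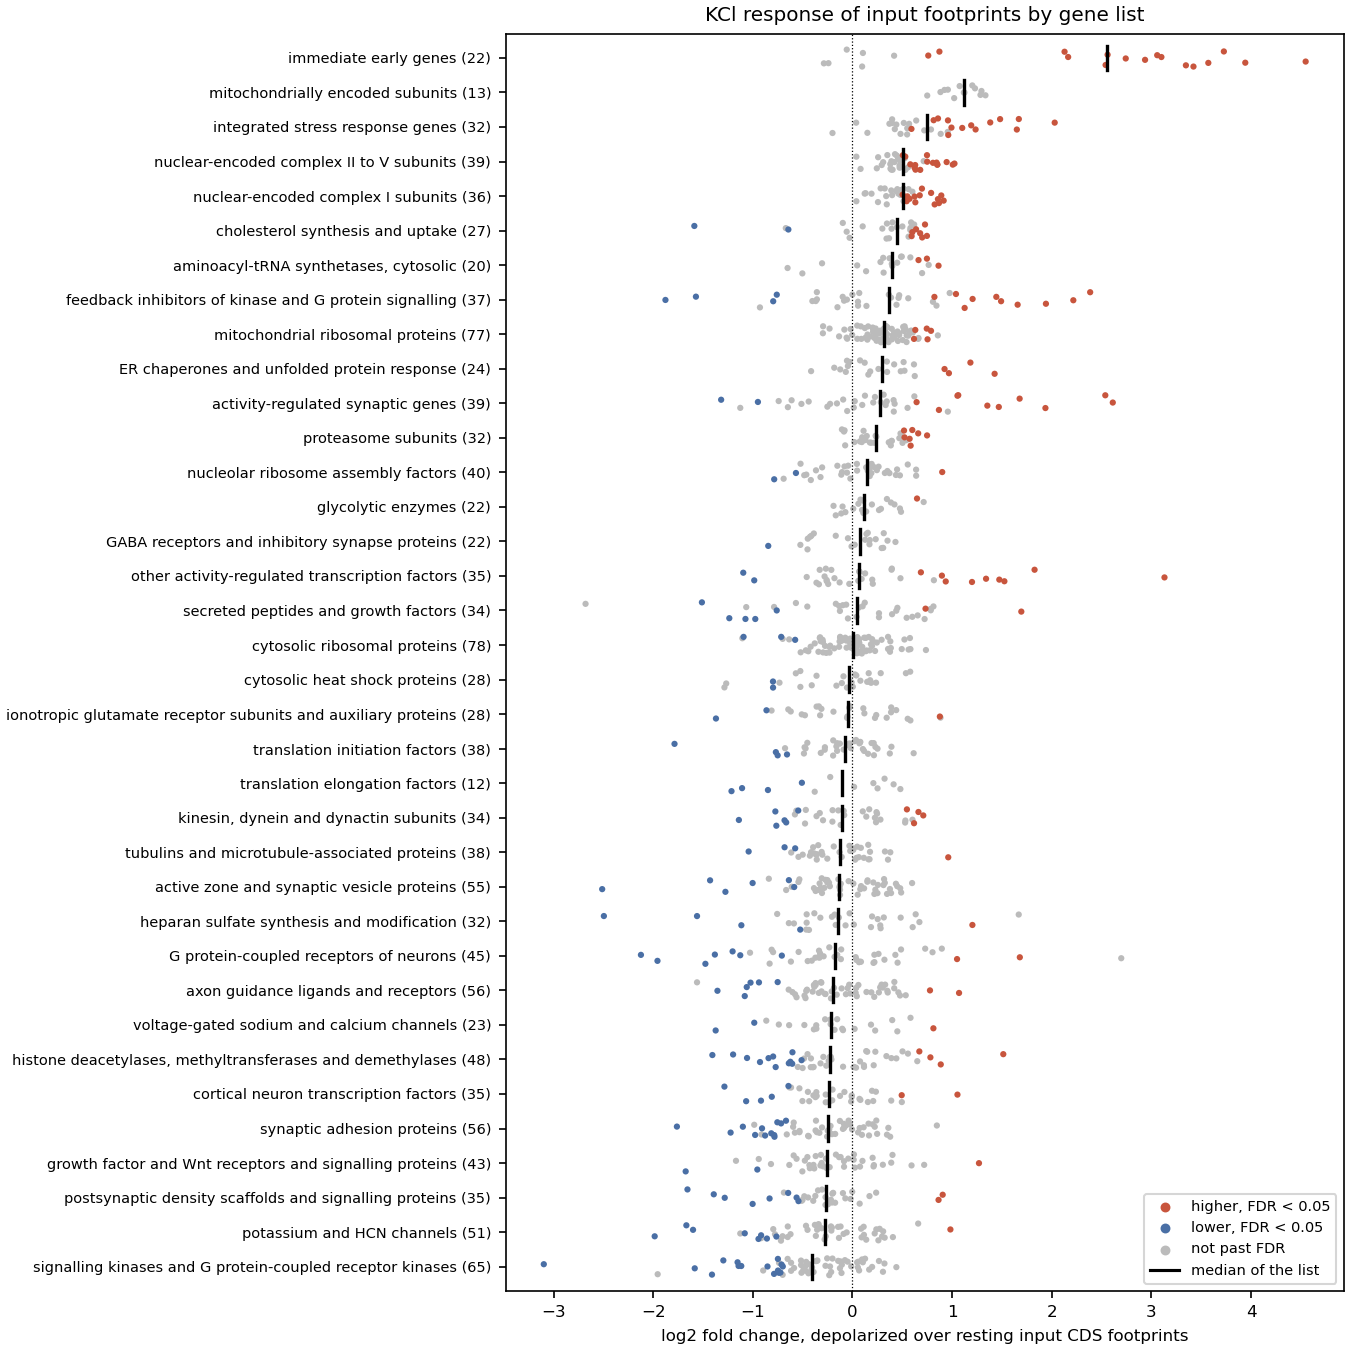
Log2 fold change of depolarized over resting input CDS footprints for the members of 36 gene lists, with the number of tested members in brackets, 1 point per gene (red, higher past the FDR, blue, lower past the FDR, grey, not past it) and a black bar at each list's median. Lists run from signalling kinases with a median of -0.41 at the bottom to immediate early genes with 2.55 at the top, and both lists of nuclear-encoded respiratory subunits lie wholly above 0.

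Among the lowered genes, the 12 with the smallest p, chosen under the same condition, were of mixed function. Apba1, or Mint1, an adaptor that binds the SNARE regulator Munc18 (mm10 chromosome 19, CDS from 23892806 to 23945781), held 302, 372 and 344 CPM in resting pairs and 54.2, 72.9 and 50.9 CPM in depolarized pairs. Its log2 fold change was -2.51 (SE 0.185, edgeR FDR 3.02e-06). Mapk6, an atypical MAP kinase also called ERK3, had the largest fall, from 55.2, 71.4 and 58.9 CPM to 8.19, 9.22 and 4.62 CPM. For both genes each depolarized pair was far below each resting pair, where lying below was a condition of choice. In these genes 11 of 11 and 5 of 5 CDS segments with at least 50 counts moved down. Hs3st1, which adds a sulfate to heparan sulfate chains, went from 59.9, 73.7 and 52.3 CPM to 11.6, 12 and 9.57 CPM. B3gat1, which makes the HNK-1 glycan, went from 54.3, 58.6 and 67.1 CPM to 16.9, 10.1 and 10.4 CPM. Ptpra, a receptor tyrosine phosphatase, went from 90.9, 88.5 and 107 CPM to 24.6, 23.1 and 22.4 CPM. The spread within each condition was small beside the gap between conditions, which choosing by the smallest p favours.

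Adgrl1, the presynaptic adhesion receptor latrophilin 1, was the most abundant of the 12, at 380, 474 and 423 CPM at rest and 131, 111 and 88.2 CPM after KCl, and 21 of 21 segments moved down. Sh3kbp1 and Epn1, both adaptors of endocytosis, fell by 2.17 (SE 0.201) and 1.89 (SE 0.177) on the log2 scale. Mprip, which targets myosin phosphatase to actin, fell by 1.73 (SE 0.160), Ulk2, a kinase that starts autophagy, by 2.05 (SE 0.216) and Ncor1, a nuclear corepressor, by 1.43 (SE 0.152). In Ncor1, 36 of 38 segments with at least 50 counts moved down. Pabpc1, the cytoplasmic poly(A)-binding protein, went from 236, 289 and 253 CPM to 60.0, 76.9 and 87.4 CPM.

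Signalling kinases were the class with the lowest median. Of 65 tested, 15 fell, 0 rose and 52 had a fold change below 0, with a median log2 fold change of -0.41. Grk2, which desensitizes G protein-coupled receptors, went from 80.3, 74.8 and 73.1 CPM to 22.9, 31.1 and 21.9 CPM. Mapk10, the neuronal JNK3, went from 71.3, 64.4 and 74.1 CPM to 25.1, 32.4 and 21.3 CPM. Pak1, a p21-activated kinase that acts on actin, went from 126, 136 and 166 CPM to 55.7, 70.8 and 64.9 CPM. Among 18 p21-activated, homeodomain-interacting and related kinases, a list chosen after values were seen, 10 fell and 0 rose (median -0.93), with Pak1 in both lists, led by Hipk3 (log2 fold change -1.69, SE 0.196) and Mast2 (-1.54, SE 0.188). With the length trend removed, 12 of the 65 and 9 of the 18 fell, with medians of -0.27 and -0.77, and 1 of the 65 rose. Without both pairs numbered 2, 4 and 3 fell, and without both numbered 3, 4 and 6 fell.

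Receptor phosphatases held some lowered genes. Of 16 receptor-type tyrosine phosphatases 5 fell and 0 rose (median -0.17), Ptprj by 0.95 (SE 0.179), Ptprf by 0.78 (SE 0.148) and Ptprs by 0.79 (SE 0.153). The list was drawn up after values were seen. With the length trend removed, 4 fell and 1 rose. Ptprj, Ptprf and Ptprs each missed the FDR without both pairs numbered 2 and without both numbered 3. Among 43 growth factor and Wnt receptors and signalling proteins (median -0.26), 2 fell (4.65%, against 5.6% of all genes) and 1 rose, and both insulin receptor substrates were among them. Irs1 went from 133, 143 and 163 CPM to 30.1, 54.3 and 51.3 CPM, while Irs2 went from 186, 181 and 144 CPM to 401, 346 and 486 CPM. These adaptors share the receptors they serve and moved in opposite directions without overlap.

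Scaffold, adhesion and release proteins of the synapse held more lower than higher genes, as did all genes tested (5.6% against 3.96%). Of 35 postsynaptic density scaffolds and signalling proteins 8 fell and 2 rose (median -0.27), of 56 synaptic adhesion proteins 12 fell and 0 rose (median -0.25), and of 55 active zone and synaptic vesicle proteins 6 fell and 0 rose (median -0.13). These are 22.9%, 21.4% and 10.9% lower, and Rims1 is in the first and the last of these lists. Dlgap3, a scaffold that links PSD95 to Shank, went from 44.9, 52.1 and 60.2 CPM to 12.3, 17.5 and 19.1 CPM. Rims1, a scaffold of vesicle release, went from 243, 292 and 260 CPM to 132, 132 and 132 CPM. Ppp1r9b, or spinophilin, fell by 1.28 (SE 0.175), Stxbp5, or tomosyn, by 1.43 (SE 0.193) and Flrt2, an adhesion protein and latrophilin ligand, by 1.76 (SE 0.233) on the log2 scale. With the length trend removed 5 postsynaptic density proteins fell and 1 rose (median -0.09), and 10 adhesion proteins fell and 0 rose (median -0.16). Without both pairs numbered 2, 1 postsynaptic density protein and 0 adhesion proteins passed, without both numbered 3, 4 and 2 fell, and without depolarized pair 1, 10 and 24 fell. Between the pairs numbered 1 the median of the adhesion proteins was 0.13, against -0.49 and -0.50 between those numbered 2 and 3.

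Receptors and ion channels differed by class in the share that was lower, against 5.6% of all genes. Of 28 ionotropic glutamate receptor subunits and auxiliary proteins 1 rose and 2 fell (median -0.04). Gria1, an AMPA receptor subunit, went from 180, 181 and 199 CPM to 504, 260 and 267 CPM, with depolarized pair 1 far above the others. Gria1 missed the FDR with the replicate number as a block and was at 0.48 without both pairs numbered 1. Cacng2, or stargazin, and Cacng8, auxiliary subunits of AMPA receptors, went down by 1.37 (SE 0.360, edgeR FDR 0.0302) and 0.86 (SE 0.235, edgeR FDR 0.0353). Cacng8 missed the FDR with the replicate number as a block and was at -0.54 without both pairs numbered 3, and Cacng2 missed it with the inputs of either ligase alone. Of 51 potassium and HCN channels 8 fell (15.7%) and 1 rose (median -0.28), and of 23 voltage-gated sodium and calcium channels 2 fell and 1 rose (median -0.22). Kcna4, a voltage-gated channel of the A type, went from 34.0, 30.5 and 35.1 CPM to 11.6, 10.8 and 9.25 CPM. Kcnj4, an inward rectifier, went from 65.4, 79.2 and 80.8 CPM to 23.6, 31.5 and 19.0 CPM. Of 45 G protein-coupled receptors 7 fell (15.6%) and 2 rose (median -0.18), among them Adgrb2, a brain angiogenesis inhibitor receptor, which fell by 1.48 (SE 0.210). Of the potassium and HCN channels and the G protein-coupled receptors, 2 and 2 fell without both pairs numbered 2, and 3 and 2 fell without both numbered 3.

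Guidance cues, glycan enzymes, motors and tubulins had called genes in both directions, and all genes tested also held more lower than higher genes. Of 56 axon guidance ligands and receptors 6 fell (10.7%) and 2 rose (3.57%), with a median of -0.20. Of 32 enzymes of heparan sulfate 4 fell (12.5%) and 1 rose (3.12%), with a median of -0.15. With the length trend removed 5 fell and 4 rose in the former and 3 fell and 3 rose in the latter, and without both pairs numbered 2, 0 and 1 fell. Plxna1, a semaphorin receptor, went from 218, 198 and 208 CPM to 139, 86.2 and 76.3 CPM. Of 34 kinesin, dynein and dynactin subunits 6 fell and 4 rose (median -0.10), with Kif3c at -1.14 (SE 0.180) and Dctn3 at 0.71 (SE 0.166). Of 38 tubulins and microtubule-associated proteins 3 fell and 1 rose (median -0.12). These are 7.89% and 2.63%, near the 5.6% and 3.96% of all genes. Tubb5, an abundant tubulin, went from 2580, 2030 and 1930 CPM to 1250, 980 and 953 CPM, and Stmn4, a stathmin that destabilizes microtubules, went up from 324, 278 and 269 CPM to 539, 583 and 575 CPM. Tubb5, Stmn4, Kif3c, Dctn3 and Plxna1 each missed the FDR without both pairs numbered 2.

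Chromatin regulators and cortical transcription factors moved in both directions. Of 48 histone deacetylases, methyltransferases and demethylases 12 fell (25%) and 4 rose (8.33%), with a median of -0.23. Hdac5, a class IIa deacetylase that shuttles with calcium signals, went from 129, 187 and 180 CPM to 66.3, 65.0 and 56.3 CPM. Hdac4, of the same class, fell by 0.93 (SE 0.170) and Kmt2b, a histone methyltransferase, by 1.06 (SE 0.185). With the length trend removed 9 members rose and 6 fell, so the balance of this list turned with that setting. Of 35 cortical neuron transcription factors 5 fell and 2 rose (median -0.24). These are 14.3% and 5.71%, against 5.6% and 3.96% of all genes. Satb1, a chromatin organizer, went from 167, 136 and 91.0 CPM to 60.2, 52.7 and 49.7 CPM, and Sox4 from 558, 752 and 669 CPM to 297, 451 and 298 CPM.

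Part of the translation machinery was lowered as well. Of 12 elongation factors 4 fell and 0 rose (median -0.10), and of 38 initiation factors 4 fell and 0 rose (median -0.07). These are 33.3% and 10.5% lower, against 5.6% of all genes. Eef2, the translocase of elongation, went from 2290, 2560 and 2370 CPM to 1170, 965 and 1220 CPM. Eef1a1, which delivers charged tRNAs, went from 1580, 1650 and 1390 CPM to 715, 511 and 769 CPM, and its neuronal paralog Eef1a2 from 958, 804 and 781 CPM to 476, 468 and 469 CPM. Eef2, Eef1a1 and Eef1a2 missed the FDR without both pairs numbered 2, at -0.99, -1.03 and -0.90. Reads shared by Eef1a1 and its near-identical copies may have been split in counting. Of 12 Y-box, poly(A)-binding and related proteins, listed after values were seen, 5 fell and 1 rose (median -0.50), with Pabpc1 counted here and among the initiation factors, among them Ybx1 (log2 fold change -1.41, SE 0.169) and Ybx3 (-1.75, SE 0.234), which bind mRNA. In Ybx1 only 3 of 5 segments with at least 50 counts moved down. Of the cytosolic ribosomal proteins described above Rpsa, Rplp0 and Rpl4 fell, which is 3.85% of the list against 5.6% of all genes as counted, and 8 fell with the length trend removed. Rplp0 and Rpl4 missed the FDR with the replicate number as a block, and Rpsa, Rplp0 and Rpl4 missed it without both pairs numbered 2. Rpsa went from 136, 171 and 120 CPM to 54.5, 73.0 and 71.9 CPM. Nucleolar ribosome assembly factors had 1 of 40 higher and 2 lower (median 0.15), shares of 2.5% and 5% that were near the 3.96% and 5.6% of all genes.

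Markers of cell types were counted in the same way. Of 12 neuron markers 3 fell and 0 rose (median -0.18), Nefh from 26.8, 37.9 and 32.2 CPM to 13.3, 11.9 and 13 CPM. Of 12 GABAergic interneuron markers 2 rose and 0 fell (median 0.30), the homeobox factors Dlx2, from 30.4, 42.1 and 40.2 CPM to 65.3, 79.9 and 75.1 CPM, and Dlx5, by 0.67 (SE 0.199, edgeR FDR 0.0497). Dlx5 missed the FDR without robust estimation, with the inputs of either ligase alone and with the length trend removed, and was at 0.48 without resting pair 1. Of 14 interneuron transcription factors, listed after values were seen, 3 rose, Dlx2 and Dlx5 among them, and 0 fell. None of the tested markers of astrocytes, oligodendrocytes, microglia, endothelial cells and fibroblasts, or dividing progenitors passed. Oligodendrocyte lineage markers had a median log2 fold change of -0.68 over 9 genes and dividing progenitor markers of -0.47 over 12. Their part in other results was not tested.

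The called genes differed in CDS length, which the selection of the samples did not use. Higher genes had a median CDS of 693 nt and lower genes of 2154 nt, against 1380 nt for all genes tested. Their 3′ UTRs had medians of 1115 and 1668 nt against 1268 nt, and their 5′ UTRs of 153 and 299 nt against 189 nt. GC content of the CDS was alike, at 54.5% and 54.5% against 53.2%. In the shortest of 5 equal bins of genes 9.96% rose and 0.383% fell, and in the longest 1.53% rose and 10.7% fell. Across genes, which are not independent replicates, the Spearman correlation of log2 fold change and CDS length was -0.313. With each pair's trend with CDS length removed 456 genes rose and 544 fell. The part of CDS length in these calls was not tested further.

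**Figure D3:**
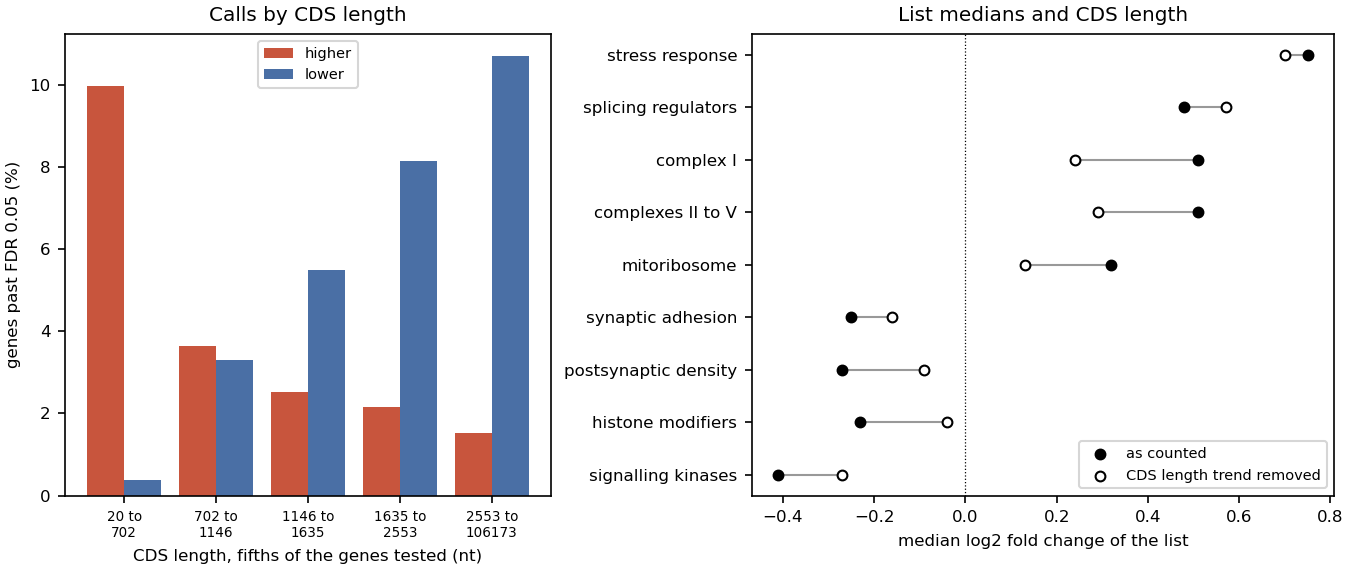
Left, percent of genes past the FDR in each of 5 equal bins of CDS length, higher in red and lower in blue, falling from 9.96% to 1.53% for higher genes and rising from 0.383% to 10.7% for lower genes. Right, median log2 fold change of 9 gene lists as counted (filled) and with each pair's trend with CDS length removed (open), where stress response genes stay at 0.75 and 0.70 and histone modifiers go from -0.23 to -0.04.

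Footprints in 5′ UTRs of the same transcripts gave a readout of other positions in the same libraries. Footprints were placed by their 5′ ends without an offset, so ribosomes on the first codons were counted in the 5′ UTR. Of 10750 genes tested, 143 (1.33%) were higher and 16 (0.149%) lower after KCl, scaled by the CDS libraries, and the median log2 fold change of all genes was 0.18 (-0.03 with the 5′ UTR counts' own scaling). With the replicate number as a block 266 were higher and 21 lower, while without both pairs numbered 2 there were 35 and 0, and without both numbered 3 there were 37 and 10. Fosb rose by 3.52 (SE 0.292), Arc by 3.12 (SE 0.298) and Junb by 2.77 (SE 0.284) in the 5′ UTR, and Hcrtr2, Flrt2 and Pdgfc fell by 1.91, 1.42 and 1.58. Of the 143 genes, 86 also rose in the CDS, 56 did not pass there and 1, Tmcc2, named after its values were seen, fell there. The fall of Tmcc2 missed the FDR with the replicate number as a block (-0.65) and with the transcript of the highest count (-0.53). Pairs held 21, 28.4 and 26.1 counts in the 5′ UTR per 100 in the CDS at rest and 24.8, 33.8 and 31.6 after KCl, which was higher in 3 of 3 numbers for the summed pairs. The Pan-TurboID inputs numbered 1 went the other way, with 22.7 at rest and 20.3 after KCl. The study reported no global change in 5′ UTR occupancy of its TurboID-PSD95 inputs, measured as reads scaled to region length and depth. The ratio used here is a different measure. It also rises where CDS counts fall, and more counts in 5′ UTRs cannot be told apart from fewer in CDSs.

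The called genes were then read in the 5′ UTR, where the median of all genes was 0.18. Of the 468 higher genes tested in the 5′ UTR, the median log2 fold change was 0.78 in the CDS and 0.52 in the 5′ UTR, or 0.32 with own scaling, and 86 rose past the FDR there. Of the 678 lower genes the medians were -0.94 in the CDS and -0.01 in the 5′ UTR, or -0.20 with own scaling, and 11 fell past the FDR there. Apba1 changed by -2.51 in the CDS and by 0.40 (SE 0.278, edgeR FDR 0.672) in the 5′ UTR, and Mapk6 by -3.10 and -0.45 (edgeR FDR 0.719). Hs3st1 and Pabpc1 are among the 11, with 5′ UTR changes of -1.35 (edgeR FDR 0.0127) and -1.02 (edgeR FDR 0.0232). Of the stress response genes 10 of 32 rose in the 5′ UTR, with a list median of 0.87, of the subunits of complex I 1 of 34 and of complexes II to V 0 of 37. Homer1, a postsynaptic scaffold gene, changed by -0.51 (SE 0.256, edgeR FDR 0.225) in the CDS of its longest transcript and by 1.45 (SE 0.295, edgeR FDR 5.92e-04) in the 5′ UTR. With the transcript of the highest count its CDS fell by 1.06 past the FDR, and the segments of the longest transcript with at least 50 counts ranged from -1.09 to 0.6.

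The response was measured again in inputs that share no library with the comparison. In 2 resting and 2 depolarized TurboID-PSD95 inputs, treated with 20 nM siRNA against the translation factor eIF4G2 for 72 h, 1754 of 12295 genes (14.3%) rose and 1911 (15.5%) fell after the same KCl treatment. Without resting input 1 or 2 of these, 1021 or 1053 rose and 1230 or 1159 fell, with the lone resting input assumed to vary like the depolarized ones. Among the genes with the smallest p were Fos, Nr4a1 and Egr1, which rose, and Tubb5 and Adgrl1, which fell. Of 509 higher genes tested there, 500 had a fold change above 0 and 389 (76.4%) rose past the FDR. Of 727 lower genes, 711 had a fold change below 0 and 551 (75.8%) fell past the FDR. Their medians were 0.67 against 0.78 and -0.85 against -0.95 in the untreated inputs. Across 12205 genes the Pearson correlation of both fold changes was 0.59, and genes are not independent replicates. None of the 38 libraries is labelled as treated with a control siRNA, and the difference between both responses was not tested.

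**Figure D4:**
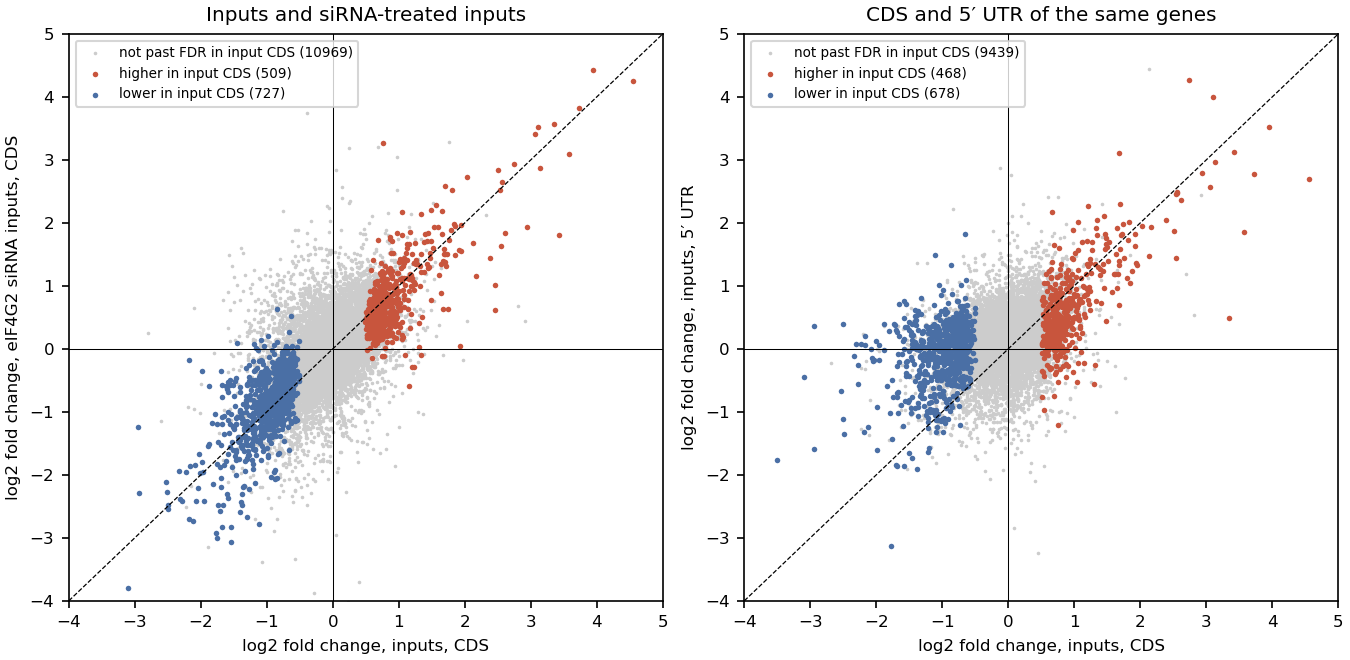
Log2 fold change after KCl in input CDSs (horizontal) against that in inputs of neurons with eIF4G2 siRNA (left, 9 genes lie outside the axes) and in the 5′ UTRs of the same input libraries (right), 1 point per gene, red higher, blue lower and grey not past the FDR in input CDSs, with a dashed line of equal change. Red and blue points follow the dashed line at left, with medians of 0.67 and -0.85 on the vertical axis, while at right the blue points lie around 0, with a median of -0.01.

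The lists were counted in the siRNA-treated inputs as well. There 14.3% of all genes rose and 15.5% fell, against 3.96% and 5.6% in the untreated inputs, so counts of called genes are not alike between both. Stress response genes rose in 21 of 32 and fell in 1 (median 0.62), subunits of complex I rose in 28 of 36 and of complexes II to V in 34 of 39 with 0 lower, splicing regulators rose in 24 of 40 and fell in 2, and signalling kinases fell in 37 of 65 with 0 higher. The 13 mitochondrially encoded subunits all rose there (median 1.38). None of them passed in the untreated inputs, where the median was 1.12. Synaptic adhesion proteins fell in 34 of 56 and rose in 2. Cortical neuron transcription factors had 6 of 35 higher and 6 lower (median 0.09), near the shares of all genes there. In the untreated inputs 2 were higher and 5 lower (median -0.24). Markers of other cell types differed there, with 7 of 12 dividing progenitor markers (median 0.48 against -0.47) and 6 of 10 astrocyte markers (0.40 against -0.13) rising, while 0 of 9 oligodendrocyte lineage markers rose and 1 fell (median -0.01), and their part in the other changes was not tested. Ndufa1 rose by 0.86, Atf4 by 2.19, Ccnl1 by 1.89 and Gadd45b by 2.52, and Apba1 fell by 2.27 and Mapk6 by 3.8 on the log2 scale in these inputs. Only Eln and Prdm8, chosen after their values were seen, fell in the untreated inputs (by 0.85 and 0.63) and rose past the FDR in the siRNA-treated inputs (by 0.63 and 0.53). Both falls missed the FDR with the replicate number as a block, at -0.83 and -0.61, and Eln was at -0.42 without both pairs numbered 1.

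Inputs of both ligases were compared before they were summed. The difference between the KCl response of TurboID-PSD95 and Pan-TurboID inputs passed the FDR in 0 of 12614 genes (0%) in edgeR's test of the interaction, with 330 genes at an unadjusted p under 0.05. Notch1 had the smallest p, with a difference of -0.99 on the log2 scale (edgeR FDR 1). Taken alone, TurboID-PSD95 inputs gave 387 higher and 483 lower genes and Pan-TurboID inputs 145 and 294. The response of inputs and pulldowns of both ligases also differed past the FDR in 0 of 13544 genes (0%), with 523 at an unadjusted p under 0.05. Homer1 had the smallest p there, with an input response lower than the pulldown response by 1.5 on the log2 scale (edgeR FDR 1). With 3 pairs per condition these tests leave differences smaller than the spread between pairs undetected. Pulldowns of both ligases were summed for the second test, and Pan-TurboID pulldowns hold ribosomes of the whole neuron. They gave 14637215 CDS counts against 2047329 for TurboID-PSD95 in resting number 3, and fewer only in resting number 2 (4383324 against 4787013). The second test therefore cannot single out dendritic ribosomes.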

How the data were processed

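The deposited tables held whole-number counts of footprint 5′ ends for each segment of the coding sequence, 5′ UTR and 3′ UTR of every transcript, which the authors made by trimming reads with Rfastp, splitting barcodes with fastq-multx, aligning to mm10 with Rsubread and counting with plastid at an offset of 0. CDS counts were summed over the longest transcript of each gene, and 99.1% of 67238 transcript identifiers matched GENCODE M21. Both inputs of a condition and replicate number were then summed. Pairs were compared with edgeR 4.0.16 in R 4.3.3 (TMM scaling, filterByExpr, robust quasi-likelihood F test, Benjamini-Hochberg adjustment, FDR 0.05), after the code had been tested on simulated data. SE is the absolute log2 fold change over the square root of F, and CPM values are scaled by TMM. The 5′ UTR counts were tested alike with the CDS library sizes.

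Replicate numbers mark a shared batch, since the deposited headers place each number in a processing run of its own with both conditions and the methods state that resting and activated samples of a replicate were handled together. Deviations from the group means of same-numbered resting and depolarized pairs correlated at -0.12, 0.18 and -0.18 over 7866 genes. The comparison and its list counts used no block for the number, and the block was an alternative. The study's methods name edgeR's likelihood ratio test for dendritic translation within a condition, not for this comparison, and it was an alternative here, as were DESeq2 1.42.0 and limma 3.58.1.

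The genes named are, outside the immediate early genes, the 12 with the smallest p in each direction, and up to 4 genes of each list with the smallest p. Members and lists were chosen with earlier results of these data known. Beside the 12 inputs, 4 siRNA-treated inputs and 12 pulldowns were used, and the remaining libraries and all 3′ UTR counts were not. Results for some genes are not reported here.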

Additional observations from a re-analysis of the deposited data

Results flagged for a closer look

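The KCl response of 2 genes went in opposite directions in untreated inputs and in inputs of neurons with eIF4G2 siRNA, past the FDR of edgeR's test in each, and the difference between both responses was not tested. With the replicate number as a block neither fall passed in the untreated inputs, at -0.83 for Eln and -0.61 for Prdm8. Eln also missed the FDR with upper-quartile scaling, with either ligase alone and without both pairs numbered 1 (-0.42), and Prdm8 without robust estimation and with TurboID-PSD95 inputs alone (-0.45). Eln, which encodes elastin, had a log2 fold change of -0.85 in the untreated inputs, with 63.6, 36.1 and 43.0 CPM at rest and 19.5, 31.8 and 27.0 CPM after KCl, and of 0.63 in the siRNA-treated inputs. Prdm8, a transcriptional regulator, had a log2 fold change of -0.63, with 503, 481 and 737 CPM at rest and 337, 391 and 384 CPM after KCl, and of 0.53 in the siRNA-treated inputs.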

How the results depend on the processing

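Counts of called genes depended more on the replicates than on the scaling. The 517 higher and 730 lower genes stayed within 1.5 times under RLE and upper-quartile scaling, no filter on low counts, the likelihood ratio test, no robust estimation, the transcript of the highest count and removal of the CDS length trend. With the replicate number as a block 361 were higher and 601 lower. DESeq2 called 806 higher genes, the 12 inputs as separate libraries gave 1339 and 1502, limma-voom with the pair as a random block gave 965 and 1192, and 24 libraries in 8 groups gave 1068 higher. TurboID-PSD95 inputs alone gave 483 lower genes and Pan-TurboID inputs alone 145 and 294. Leaving out 1 number or 1 pair gave 45 to 777 higher and 63 to 1119 lower genes. In the 5′ UTR the block gave 266 higher and 21 lower, own scaling gave 38 lower, and leaving out 1 number gave 35 to 137 higher and 0 to 15 lower. In siRNA-treated inputs leaving out 1 library gave 1021 to 1708 higher and 1159 to 1993 lower, and the block gave 1759 and 1950. The test between both ligases called 6 lower genes with no filter and 0 to 2 when 1 number was left out, and that between inputs and pulldowns called 1 and 3 with no filter. Without the replicate block both tests called 0. The KCl response of Notch1 in input CDSs, which is not its difference between ligases, was below 0 as counted. It turned to 0.19 with Pan-TurboID inputs alone and to 0.01 with the CDS length trend removed. The cause was not tested. Low counts limit genes of few CPM, and 3 pairs per condition limit small changes.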
